A study of Drosophila melanogaster with 2 samples.

Results

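The genes of the cytosolic ribosomal proteins were examined for regions recovered with the transcriptional coactivator Taiman (tai) in Drosophila melanogaster. A gene was included when it is protein-coding in the Ensembl annotation of the BDGP6 assembly, lies on arms 2L, 2R, 3L, 3R, 4 or X, and has a symbol of RpL or RpS followed by a digit or by P. This gave 92 of the 13945 protein-coding genes on these arms, 54 for the large subunit (RpL) and 38 for the small subunit (RpS). The data were chromatin immunoprecipitation with sequencing (ChIP-seq) of intact larvae at the wandering stage of the third instar, males and females pooled, of unknown age. All animals came from a single stable transgenic line in which GFP is joined to the C terminus of tai, and chromatin was sheared by sonication and recovered with an antibody against GFP. The labels give a single group of 2 biological replicates, called replicate 1 and replicate 3 here, so no genotype, stage or tissue could be compared, and no sample without the tag was analysed here. Whole animals mix all tissues, so a region near a gene does not say in which cells it was recovered.

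Each replicate, and the pool of both, has a deposited list of peaks and background regions on the dm6 build, and a shorter list holds what the authors kept by irreproducible discovery rate (IDR). On the arms, the IDR list held 2567 peaks, the pooled list 29974 regions, the replicate 1 list 29973 and the replicate 3 list 29976. Read depth is unknown. The signal of a region is the authors' own value and serves here to rank and describe regions within its own list, with rank 1 the strongest on the arms. A gene was counted in a list when the summit of a region lay within 1000 bp of any of its annotated transcription start sites (TSSs). The 2567 regions of highest signal in each replicate are called its top regions. Intervals are 95% exact Clopper-Pearson intervals and cover counting error only. For a count of 0 the limit given is 3 counts of the total, which is lower than an exact interval would give. Both replicates were called against the same control alignment, and how much of what they share comes from it was not tested.

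The cytosolic ribosome is built from a large and a small subunit, each an assembly of ribosomal RNA and many proteins, most of them encoded by a single gene in the fly. These genes are transcribed at very high and balanced rates in growing cells, and flies with a single working copy of many of them show the Minute phenotype of slow development and thin bristles. Many of their promoters start transcription at a TCT initiator, a polypyrimidine element of translation genes, rather than at a common initiator. Taiman is a coactivator with bHLH and PAS domains that works with the ecdysone receptor and other partners, and wandering larvae are close to the ecdysone pulse that starts metamorphosis.

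Most ribosomal protein genes had no listed region within 1000 bp of a TSS, and the 10 with an IDR summit had it at pooled ranks between 755 and 1991 and within 255 bp of a TSS. Of the 92 genes, 10 had an IDR summit within 1000 bp of a TSS, or 10.9% (interval 5.34 to 19.1), compared with 7.91% of all protein-coding genes. In the pooled list the count was 22 genes, or 23.9% (15.6 to 33.9), compared with 28.2% of all genes. In the replicate 1 list it was 29 genes, or 31.5% (22.2 to 42.0), compared with 31.3% of all genes. In the replicate 3 list it was 21 genes, or 22.8% (14.7 to 32.8), compared with 29.8% of all genes. The share of all genes lay inside the interval of the ribosomal protein genes in each of these 4 lists. Both replicate lists together held 21 of the 92 genes, or 22.8%, compared with 22.7% of all genes. Any of the 4 lists held 29 genes, or 31.5%, compared with 39.2% of all genes, and all 29 had a region in replicate 1.

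Among the 2567 top regions the share of ribosomal protein genes was above that of all genes in each replicate, with the share of all genes inside the interval, and among fewer and stronger regions it was not above it throughout. Among top regions, 13 ribosomal protein genes had a summit in replicate 1, or 14.1% (7.74 to 23.0), compared with 9.39% of all genes. In replicate 3 the count was also 13, or 14.1%, compared with 7.87% of all genes, which lies just inside the same interval. A top summit in both replicates was found at 7 genes, or 7.61% (3.11 to 15.1), compared with 5.21% of all genes. These 7 were RpL15, RpS12, RpS20, RpS27A, RpS3A, RpS7 and RpS9. With only the strongest 1000 regions of each replicate 1 gene was left, or 1.09%, compared with 2.62% of all genes, and with the strongest 5000 there were 12, or 13.0%, compared with 7.80%.

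**Figure D1:**
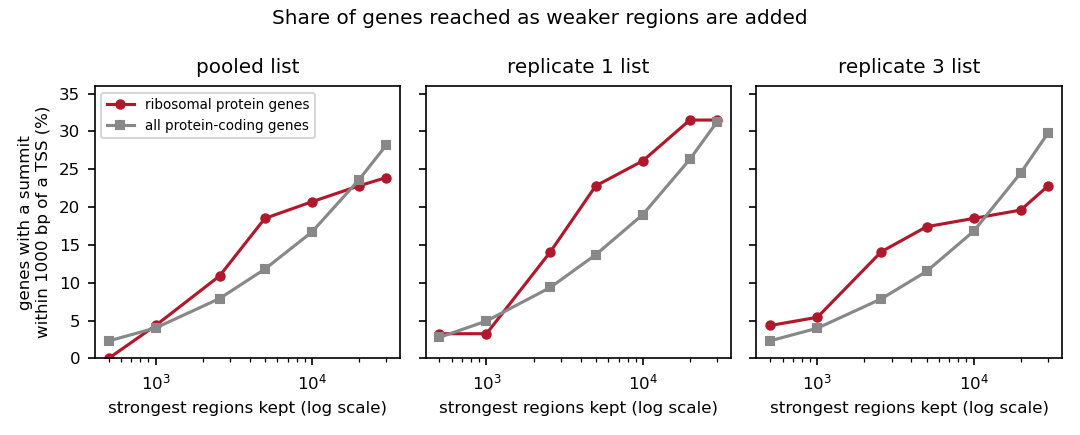
Share of genes with a summit within 1000 bp of a TSS (y axis, percent) as weaker regions are added (x axis, number of strongest regions kept, log scale), for the pooled list and each replicate list, with the ribosomal protein genes in red and all protein-coding genes in grey. With the strongest 5000 regions the ribosomal protein genes reached 18.5% in the pooled list, 22.8% in replicate 1 and 17.4% in replicate 3, against 11.8%, 13.7% and 11.5% of all genes, and over the whole pooled and replicate 3 lists they lay below all genes.

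The share changed with the number of regions kept. None of the 92 genes had a summit among the strongest 500 pooled regions, and a count of 0 allows a share of up to 3.26%, while 2.30% of all genes had one. The strongest 500 regions of replicate 1 held 3 of the 92 genes, or 3.26%, compared with 2.78% of all genes. Those of replicate 3 held 4, or 4.35%, compared with 2.33%. At 1000 pooled regions the share was 4.35%, compared with 4.02% of all genes, and at 5000 it was 18.5%, compared with 11.8%. From 5000 to 20000 pooled regions it gained few genes and reached 22.8%, compared with 23.6% of all genes. In replicate 1 the share went on rising, with 22.8% at 5000 and 31.5% at 20000 regions, compared with 13.7% and 26.3% of all genes. In replicate 3 the share was 17.4% at 5000 and 19.6% at 20000 regions, compared with 11.5% and 24.5% of all genes.

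Split by subunit, 6 of 38 small-subunit genes had an IDR summit, or 15.8% (6.02 to 31.3), and 4 of 54 large-subunit genes, or 7.41% (2.06 to 17.9). A top summit in both replicates was found at the same number of small-subunit genes, 6 of 38, and at 1 of 54 large-subunit genes, RpL15, or 1.85% (0.0469 to 9.89). Any list held 15 small-subunit genes, or 39.5%, and 14 large-subunit genes, or 25.9%. Over all genes the shares were 7.91% for an IDR summit, 5.21% for a top summit in both replicates and 39.2% for any list. The intervals of the subunits overlapped in each of these counts, and the difference between them was not tested.

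**Figure D2:**
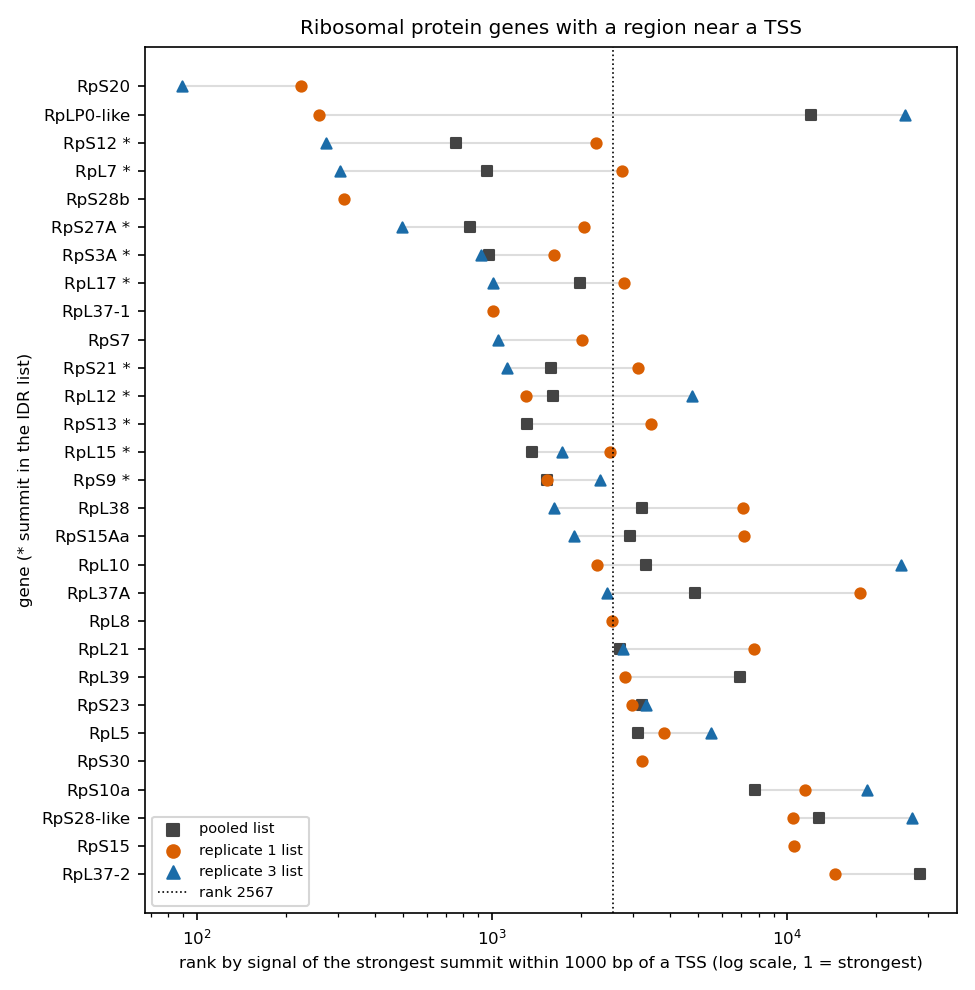
Rank by signal (x axis, log scale, rank 1 strongest) of the strongest summit within 1000 bp of a TSS, for each of the 29 ribosomal protein genes with a region in any list (y axis), in the pooled list (squares), replicate 1 (circles) and replicate 3 (triangles), with a dotted line at rank 2567 and a star on the 10 genes with an IDR summit. RpS20, at ranks 226 and 89, has no square, and the IDR genes cluster between pooled ranks 755 and 1991.

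Among small-subunit genes with an IDR summit, RpS12 ranked first. RpS12 encodes a protein of the 40S subunit that in the fly is needed for cells with a Minute mutation to be outcompeted by their neighbours. Its summit lay 44 bp upstream of the single annotated TSS (3L, summit 13023308), at pooled rank 755 with a signal of 116. The overlapping region ranked 2254 in replicate 1 (signal 46.0) and 274 in replicate 3 (signal 79.3), among the top regions of both. RpS27A, which encodes a fusion of ubiquitin with a 40S protein, followed at pooled rank 845 (signal 109, 2L, summit 10408347), 5 bp upstream of a TSS that it shares with Ip259. It ranked 2053 in replicate 1 (signal 48.1) and 496 in replicate 3 (signal 61.1).

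RpS3A, a 40S protein gene, had its summit 95 bp upstream of its only TSS (arm 4, summit 67302) at pooled rank 974 with a signal of 103. It ranked 1625 in replicate 1 (signal 53.0) and 918 in replicate 3 (signal 46.7). RpS3A is the only ribosomal protein gene on arm 4, and each of the 80 genes on that arm had a region in some list, 20 of them in the IDR list. RpS9, whose product lies by the mRNA entry channel of the 40S subunit, had its summit 128 bp upstream (3L, summit 9511659) at pooled rank 1539 with a signal of 81.2, and ranked 1533 in replicate 1 (signal 54.5) and 2317 in replicate 3 (signal 33.4).

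The other small-subunit genes with an IDR summit were RpS21 and RpS13, and neither had it among the top regions of both replicates. RpS21, whose mutants in the fly show overgrown imaginal discs and blood-forming organs, had a summit 52 bp upstream (2L, summit 2856018) at pooled rank 1588 with a signal of 79.8. That region ranked 3125 in replicate 1 (signal 39.7) and 1309 in replicate 3 (signal 40.6). RpS13, a 40S protein gene, had its summit 255 bp upstream (2L, summit 8364917) at pooled rank 1311 with a signal of 88.0. This summit lay in the 5' UTR of the divergent neighbour CSN8, a COP9 signalosome gene whose TSS was nearer, at 62 bp. The region ranked 3448 in replicate 1 (signal 38.1) and overlapped none in replicate 3, so RpS13 was the single ribosomal protein gene with an IDR summit that was not found in both replicates.

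The bases around 5 summits are shown because the sequence there differed widely from gene to gene. Each is read 5' to 3' on the strand of the gene, taken from RefSeq's copy of the release 6 genome, with any searched motif in capitals, and the summit is the middle base. RpS12 had the element of the factor DREF (DRE), RpS21 a pair of CAGCTG E-boxes on the way to the TSS, and RpL7 a CACGTG E-box beside CGCGTG, which is CACGCG on the other strand. The stretches at RpS9 and RpS20 were rich in A and T and held none of the motifs searched, the TCT initiator aside. Of the stretches not shown, of 30 or 81 bases, those at RpL15, RpL17, RpS13 and RpS27A also held none. Those at RpS3A and RpS7 held only TATAAA, at RpS7 on the other strand.
RpS12 (3L:13023268-13023348, plus strand): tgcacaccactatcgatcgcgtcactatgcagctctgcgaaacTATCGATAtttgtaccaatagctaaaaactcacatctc
RpS21 (2L:2855978-2856058, plus strand): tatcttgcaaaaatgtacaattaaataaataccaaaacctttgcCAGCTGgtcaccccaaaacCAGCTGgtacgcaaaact
RpS9 (3L:9511619-9511699, minus strand): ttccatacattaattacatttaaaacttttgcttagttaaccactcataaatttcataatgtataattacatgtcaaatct
RpS20 (3R:20821978-20822058, plus strand, replicate 3 summit): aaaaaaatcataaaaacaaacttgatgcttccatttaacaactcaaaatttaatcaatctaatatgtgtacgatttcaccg
RpL7 (2L:10200998-10201027, plus strand): gtttggccgatggcgCGCGTGtCACGTGtg
The GC content of these stretches was 43.2% at RpS12, 38.3% at RpS21, 22.2% at RpS9, 25.9% at RpS20 and 66.7% at RpL7. The stretch at RpL7 has 30 bases, most of them in a UTR, and the others have 81.

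Of the large-subunit genes, RpL7 had the IDR summit of best rank. RpL7, a 60S protein gene, had its summit 9 bp downstream of a TSS, in the 5' UTR (2L, summit 10201013), at pooled rank 961 with a signal of 103. It ranked 2759 in replicate 1 (signal 41.9) and 305 in replicate 3 (signal 75.8). The TSS of the divergent gene Ripalpha lay 30 bp from that of RpL7, so a summit at this promoter lies near both. The replicate 1 summit lay 162 bp from the IDR summit, in an intron of Ripalpha. It was 123 bp from the TSS of Ripalpha and 153 bp from that of RpL7. RpL15, another 60S protein gene, had its summit 24 bp downstream of a TSS, also in the 5' UTR (3L, summit 27267280), at pooled rank 1367 with a signal of 86.3. It ranked 2516 in replicate 1 (signal 43.6) and 1728 in replicate 3 (signal 36.9), just inside the top regions in replicate 1. The nearest TSS of another gene lay 12060 bp from that of RpL15.

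The remaining large-subunit genes with an IDR summit ranked unevenly in the replicates. RpL12, part of the base of the ribosomal stalk, had its summit 103 bp upstream (2R, summit 24060275) at pooled rank 1610 with a signal of 79.3, and the overlapping region ranked 1307 in replicate 1 (signal 59.0) and 7287 in replicate 3 (signal 23.7). RpL17, whose product lines the exit tunnel for nascent chains, had its summit 128 bp upstream (X, summit 6744366) at pooled rank 1991 with a signal of 72.4, and ranked 2798 in replicate 1 (signal 41.6) and 1005 in replicate 3 (signal 45.2). RpL12 was thus stronger by rank in replicate 1, and RpL17 in replicate 3.

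Over the 10 genes the pooled signal had a median of 87.2 and ran between 72.4 and 116. The median over all genes with an IDR summit was 102, and over all IDR peaks on the arms it was 89.1, with quartiles at 73.4 and 125. No ribosomal protein gene had a signal at or above the upper of these quartiles. With the IDR peaks limited to the strongest 1000, 4 ribosomal protein genes were left, or 4.35%, compared with 4.02% of all genes. These are the same shares as for the strongest 1000 pooled regions and not a second result.

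The summits lay nearer to the TSS than those of most bound genes. The median distance over the 10 genes was 73.5 bp, compared with 225 bp over the 1103 genes with an IDR summit, and 9 of 10 lay within 150 bp, compared with 35.5% of the 1103. Of the 10 summits 8 lay upstream of the TSS, compared with 77.2% over all such genes. They fell outside annotated protein-coding genes in 7 cases and in a 5' UTR of such a gene in 3 cases, and none fell in coding sequence or an intron of one. Genes of other kinds were not considered here. The ribosomal protein genes have more annotated TSSs, 1.68 per gene on average, compared with 1.41 over all genes, and the part of this in the distances was not tested.

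When the distance allowed was cut from 1000 bp to 50 bp, the shares of ribosomal protein genes lay above those of all genes. In the IDR list 4 genes had a summit within 50 bp, or 4.35% (1.20 to 10.8), compared with 1.06% of all genes. In the pooled list 10 genes had one, or 10.9% (5.34 to 19.1), compared with 4.07%, and in replicate 3 there were 11, or 12.0% (6.12 to 20.4), compared with 4.23%. In replicate 1 there were 7, or 7.61% (3.11 to 15.1), compared with 4.52%. The share of all genes lay below the interval of the ribosomal protein genes in the IDR, pooled and replicate 3 lists and inside it in replicate 1. At 100 bp it lay below the interval in the IDR list alone (2.19%, interval 2.43 to 13.7). From 250 bp to 2000 bp it lay inside the interval in all 4 lists. How far the larger number of annotated TSSs at ribosomal protein genes enters these counts was not tested.

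**Figure D3:**
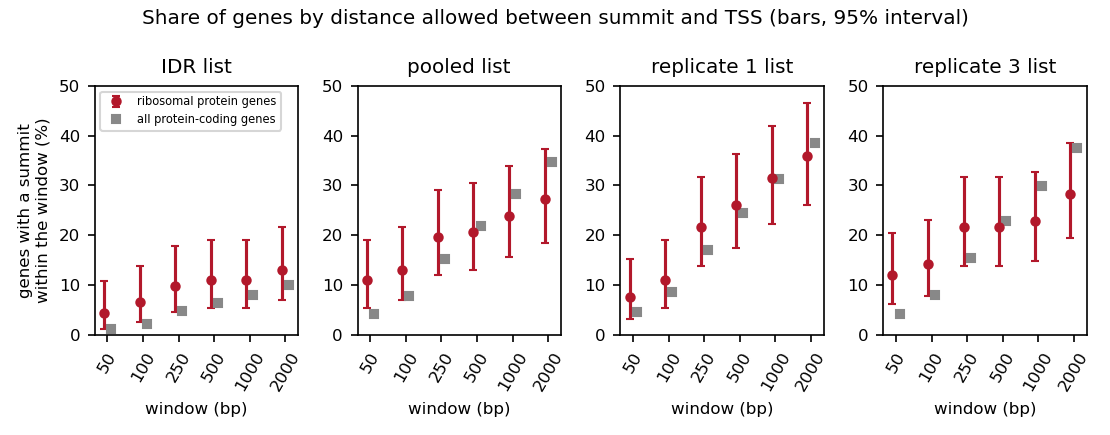
Share of genes with a summit within a window around a TSS (y axis, percent) for windows of 50 to 2000 bp (x axis), in the IDR, pooled, replicate 1 and replicate 3 lists, with ribosomal protein genes as red points with 95% exact intervals and all protein-coding genes as grey squares. At 50 bp the grey squares (1.06% to 4.52%) lie below the intervals in 3 of the 4 panels. At 100 bp they do so in the IDR panel alone, and from 250 bp to 2000 bp they lie inside them in all 4.

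The strongest replicate summits at any ribosomal protein gene were at RpS20, which had no pooled and no IDR region. RpS20 encodes a protein of the head of the 40S subunit (3R, 20822181 to 20823356, plus strand). In replicate 1 its region spanned 20821794 to 20822217, ranked 226 and had a signal of 138, and in replicate 3 it spanned 20821820 to 20822215, ranked 89 and had a signal of 123. The summits lay 175 bp and 163 bp upstream of its only TSS, 12 bp apart. The TSS of the divergent gene CG17271 lay 333 bp from that of RpS20, so both summits lie between these TSSs. In replicate 1 the TSS of CG17271 was the nearer, at 158 bp. The nearest summit in the pooled list lay 10659 bp from the replicate 3 summit. RpS7, a 40S protein gene singled out after its values were seen, also had a top region in both replicates (rank 2018 with a signal of 48.5, and rank 1052 with a signal of 44.2) and no pooled summit within 1000 bp of a TSS. Its nearest pooled summit lay 913 bp from the replicate 1 summit and ranked 28400.

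Such a pattern was uncommon over the genome. A top summit in both replicates without an IDR summit was found at 41 of all genes (0.294%), RpS20 and RpS7 among them. Of the 1341 top regions of replicate 1 that overlapped a top region of replicate 3, 24 (1.79%) overlapped no pooled region, and of the 1299 such regions of replicate 3 there were 25 (1.92%). The IDR list can hold only regions of the pooled list, so both genes are missing from the IDR count given above. Why the pooled list as analysed here holds no region at these promoters was not tested.

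**Figure D4:**
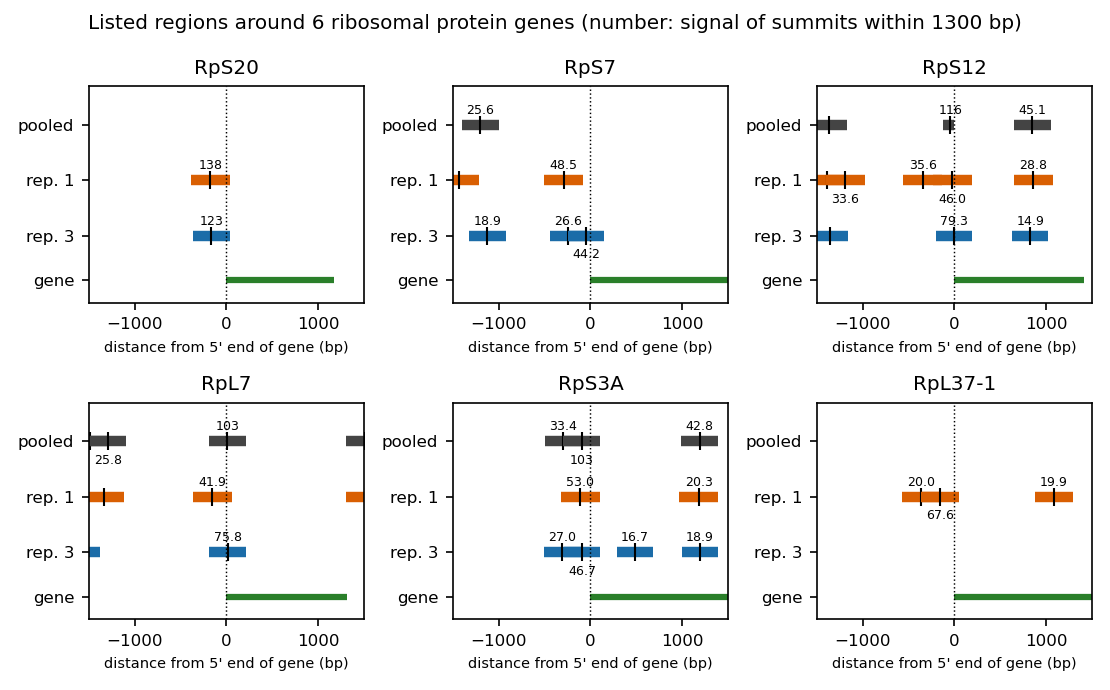
Listed regions (bars) and their summits (ticks, with signal) within 1500 bp of the 5' end of 6 ribosomal protein genes (x axis, distance in bp along the strand of the gene), in the pooled list, replicate 1 and replicate 3, with the gene in green. RpS20 shows regions with signals of 138 and 123 in the replicates and none in the pooled list, RpS12, RpL7 and RpS3A show one in all 3 rows, and RpL37-1 shows regions in replicate 1 alone.

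Most ribosomal protein genes with a region in replicate 1 also had one in replicate 3, but their ranks differed. The count was 21 of 29, compared with 3167 of 4368 over all genes. No ribosomal protein gene had a region in replicate 3 alone (0 of 92, which allows a share of up to 3.26%), compared with 7.13% of all genes. At 13 of the 21 genes the closest summits of both replicates lay within 50 bp of each other, and at 19 within 200 bp, with a median of 43 bp. Between the strongest summits of each replicate the gap ran from 12 bp at RpS20 to 1139 bp at RpS21. The better rank was in replicate 3 at 13 genes and in replicate 1 at 8. Neither the gaps nor this split were counted over all genes. RpL17, RpL37A, RpL38, RpL7, RpS15Aa and RpS21 had a top summit in replicate 3 and not in replicate 1, which makes 6 of the 92 genes, compared with 2.67% of all genes. RpL10, RpL12, RpL37-1, RpL8, RpLP0-like and RpS28b had one in replicate 1 and not in replicate 3, again 6 of the 92 genes, compared with 4.19% of all genes. At RpL8 this summit lay 985 bp upstream of its TSS and 69 bp from the TSS of msn. Counting ties, the TSS nearest to the strongest summit belonged to the gene itself at 19 of 29 genes in replicate 1 and 19 of 21 in replicate 3.

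Regions of replicate 1 alone included strong ones. RpS28b, a gene for a small 40S protein, had a summit at rank 315 in replicate 1 with a signal of 120, which lay 738 bp upstream and only 135 bp from the TSS of l(1)G0320. RpL37-1, a 60S protein gene, had one at rank 1007 with a signal of 67.6, 157 bp upstream of its TSS. Neither gene had a region near a TSS in replicate 3 or in the pooled list. RpLP0-like, whose symbol marks its likeness to the stalk protein gene RpLP0, ranked 259 in replicate 1 with a signal of 131 and 25046 in replicate 3 with a signal of 15.0, and in both lists the TSS of the divergent gene 14-3-3zeta was nearer. The other genes with a region in replicate 1 and none in replicate 3 were RpL37-2, RpL39, RpL8, RpS13, RpS15 and RpS30, so 8 of the 92 genes showed this pattern, compared with 8.61% of all genes.

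A further 12 of the 92 genes had a pooled summit and no IDR summit, compared with 20.3% of all genes. The 2567 strongest pooled regions gave the same counts as the IDR list, 10 of the 92 genes and 1103 of all genes. A pooled summit without an IDR summit therefore stands here for a pooled rank below 2567, not for a separate measure of agreement between replicates. A pooled summit within the first 5000 and no IDR summit was found at 7 of the 92 genes, compared with 3.86% of all genes. These 7 were RpL10, RpL21, RpL37A, RpL38, RpL5, RpS15Aa and RpS23, with ranks between 2725 at RpL21 and 4862 at RpL37A. RpL5, whose product carries 5S rRNA into the ribosome, had its summit 10 bp from a TSS at pooled rank 3126 with a signal of 60.3, and summits 3 bp from a TSS in both replicates, at rank 3831 in replicate 1 and 5538 in replicate 3. RpL10, which joins the 60S subunit late in its maturation, ranked 3335 in the pooled list and 2275 in replicate 1, but 24221 in replicate 3. RpL37-2, RpL39, RpLP0-like, RpS10a and RpS28-like ranked lower, between 6929 at RpL39 and 28210 at RpL37-2.

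No list held a region within 1000 bp of a TSS for 63 of the 92 genes, compared with 60.8% of all genes. They include the genes of the stalk proteins, RpLP0, RpLP1 and RpLP2, the S6 kinase target gene RpS6, and RpS3, whose product sits at the entry of the mRNA channel. Other large-subunit genes without a region included RpL10Aa, RpL10Ab, RpL11, RpL13, RpL13A, RpL14, RpL18, RpL19, RpL22, RpL22-like, RpL23, RpL23A, RpL24, RpL24-like, RpL26, RpL27, RpL27A, RpL28, RpL29, RpL3, RpL30, RpL31, RpL32, RpL34a, RpL34b, RpL35, RpL35A, RpL36, RpL36A, RpL4, RpL40, RpL41, RpL6, RpL7-like, RpL7A and RpL9. Other small-subunit genes without one included RpS10b, RpS14a, RpS14b, RpS15Ab, RpS16, RpS18, RpS19a, RpS19b, RpS2, RpS24, RpS25, RpS26, RpS27, RpS28a, RpS29, RpS4, RpS5a and RpS5b. A gene without a listed region may still have had signal below what the lists hold.

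By position, the 23 ribosomal protein genes on 3R had no IDR summit, and a count of 0 allows a share of up to 13.0%, while 7.16% of all genes on that arm had one. Of the 35 genes with the TSS of a divergent neighbour within 500 bp, 5 had a region in any list, or 14.3%, compared with 22.8% of all 3525 such genes. Of the 55 with no other gene's TSS within 500 bp, 23 had one, or 41.8%, compared with 44.7% of all 9636 such genes. In the IDR list the count was 3 of the 35 genes, compared with 8.43% of all such genes, and 6 of the 55, compared with 7.46%. The split by neighbours was not tested in either list.

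Near copies of a gene are given side by side. Among 13 families with 27 genes in all, 8 genes in 6 families had a region in any list, compared with 39.2% of all genes, and RpL37-1 and RpL37-2 were the only family with a region at every member. RpL7 had an IDR summit, while RpL7-like had no region. RpS10a and RpS15Aa had a region in all but the IDR list, while RpS10b and RpS15Ab had none. The strongest summits at RpS10a lay between 237 and 902 bp upstream, in an intron of tau. At RpS15Aa the strongest pooled summit lay 928 bp downstream, in its own intron. Its replicate 1 summit lay 66 bp from the TSS of CG15747, and its replicate 3 summit 10 bp upstream of a TSS of RpS15Aa. RpS28b and RpS28-like had one in replicate 1, while RpS28a had none, and RpLP0-like had one while RpLP0 had none. Reads that map to near copies may be dropped or split, and no source used here says how the authors treated them.

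The promoters of the ribosomal protein genes held the TCT initiator far more often than those of all genes. It was searched as CTTTC or CTTTT on the strand of the gene, starting within 10 bp of an annotated TSS, and 76 of the 92 genes had it, or 82.6% (73.3 to 89.7), compared with 9.54% of all protein-coding genes. The count depends on how the start site is placed: it was 18 genes, or 19.6%, compared with 2.04%, within 2 bp of a TSS, and 48 genes, or 52.2%, compared with 6.62%, when the most upstream TSS alone was used. Genes with and without a listed region both had it, 22 of 29 with a region (75.9%) and 54 of 63 without (85.7%). Of the 12 genes with an IDR summit or a top region in both replicates, RpL12, RpL17, RpS12 and RpS20 lacked it. RpS12 and RpS20 thus had the best ranks in replicate 3 and no TCT initiator by this search.

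The 30 bases centred on a TSS are shown for genes described above, with the TCT letters in capitals where present, read 5' to 3' on the strand of the gene from RefSeq's release 6 genome. They let the TCT letters of RpS27A, RpL7, RpS9 and RpS3A be set beside the starts of RpS12 and RpS20, where neither CTTTC nor CTTTT was found within 10 bp of the TSS. For a gene with several TSSs, the one shown is the nearest to the summit among those with the TCT letters. The letters at RpL7, RpS9, RpL15 and RpS7 are thus present by choice of the TSS. RpS27A, RpS3A, RpS12 and RpS20 have a single TSS and left no such choice.
RpS27A (2L:10408337-10408366, plus strand): cacgctgtgtgtgtgttCTTTCTTTCcttt
RpL7 (2L:10201085-10201114, plus strand): gtatagcacgtttccggtCTTTCTTTCcct
RpS9 (3L:9511517-9511546, minus strand): tcacactaccttcacccctCTTTCTTTTtc
RpS3A (4:67193-67222, minus strand): gtcgtcaacgtgattcgacCTTTTccggtt
RpL15 (3L:27267241-27267270, plus strand): tgatccaactcattgcttccttCTTTTgga
RpS7 (3R:30208934-30208963, minus strand): tctacgtcgtggctcgacttcCTTTCctgt
RpS12 (3L:13023337-13023366, plus strand): aactcacatctccagcgccatgccgatttt
RpS20 (3R:20822166-20822195, plus strand): gacaccctgtaaaacttctcttcgttttca
RpL7 has a further TSS upstream of the one shown, and its IDR summit lay 87 bp upstream of the TSS shown. At RpS27A the IDR summit lies inside the 30 bases.

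Other promoter motifs were searched in the 250 bp before to 50 bp after each TSS on both strands. DRE (TATCGATA), the site of DREF, a factor of growth and replication genes, was found at 28 of the 92 genes, or 30.4% (21.3 to 40.9), compared with 10.2% of all genes. The E-box CACGTG, the core of Myc sites, was found at 15, or 16.3% (9.42 to 25.5), compared with 5.30%. Motif 1 (GGTCACACT), a core promoter element of broadly expressed genes, was found at 10, or 10.9% (5.34 to 19.1), compared with 6.78%. CACGCG, found in juvenile hormone response elements that Taiman and its partners can bind, was present at 16, or 17.4% (10.3 to 26.7), compared with 9.15%. AGGTCA, the half-site of nuclear receptors, was present at 8, or 8.70% (3.83 to 16.4), compared with 7.53%. The intervals of DRE, the CACGTG E-box and CACGCG lay above the shares of all genes, and those of Motif 1 and the half-site included them.

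Set by whether a gene had a region in any list, these motifs gave no single order. DRE was found at 7 of the 29 genes with a region (24.1%) and at 21 of the 63 without (33.3%). Motif 1 was found at 5 of 29 (17.2%) and 5 of 63 (7.94%), and CACGCG at 7 of 29 (24.1%) and 9 of 63 (14.3%). The CACGTG E-box was found at 3 of 29 (10.3%) and 12 of 63 (19.0%). GAGAG, the core of GAGA factor sites, was found at 2 of 29 (6.90%) and 17 of 63 (27.0%), at 20.7% of all 92 genes, compared with 36.3% of all protein-coding genes. Among the 10 genes with an IDR summit, CACGCG was found at 4 (RpL17, RpL7, RpS21 and RpS27A), DRE at 2 (RpS12 and RpS13), Motif 1 at 2 (RpL7 and RpS9), and GAGAG and the half-site at 0 of 10, which allows a share of up to 30%. These differences were not tested. A match describes letters in the window and not a bound site.

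**Figure D5:**
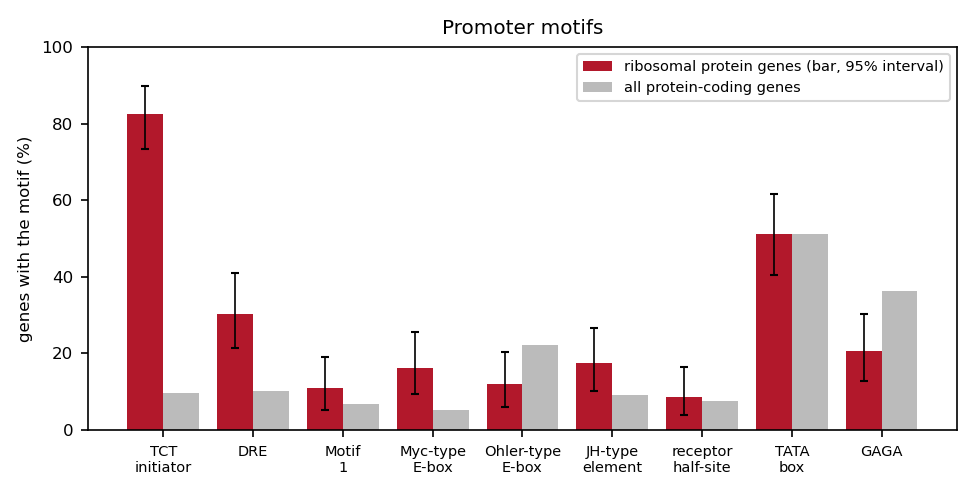
Share of genes with each motif (y axis, percent) for the 92 ribosomal protein genes (red bars, 95% exact intervals) and all protein-coding genes (grey bars), for the 9 motifs searched (x axis), with the TCT initiator within 10 bp of a TSS and the others from 250 bp before to 50 bp after it. The TCT initiator stands at 82.6% against 9.54%, and the TATA box (TATAAA) at 51.1% against 51.2%.

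The TATA box letters TATAAA were found at 47 of the 92 genes, or 51.1%, compared with 51.2% of all genes, and the E-box CAGCTG at 11, or 12.0% (6.12 to 20.4), compared with 22.3%. CAGCTG was thus rarer at these promoters than over all genes, and RpS21, with a pair of them near its summit, was among the few that had it.

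Other genes of translation had IDR shares between 2.22% and 20.0%, compared with 7.91% of all genes. Of 73 mitochondrial ribosomal protein genes 7 had an IDR summit, or 9.59% (3.94 to 18.8), and mRpL41 (signal 624), mRpL34 (signal 268) and mRpL20 (signal 195) each had a higher signal than any cytosolic ribosomal protein gene. Of 44 initiation factor genes 1 had one, eIF4A (signal 85.7), or 2.27%, and of 10 elongation and release factor genes 2 had one, eRF1 (signal 164) and eEF2 (signal 68.8). Of 45 genes of ribosome assembly and RNA polymerase I, 1 had one, TAF1B (signal 141), or 2.22%.

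Of 30 genes that regulate ribosomal protein gene expression and growth, 13 had an IDR summit, or 43.3% (25.5 to 62.6). The strongest were larp (signal 625), whose product binds mRNAs with a terminal pyrimidine tract, REPTOR (signal 280), a transcription factor downstream of TORC1, and Irbp18 (signal 234), a partner of the stress factor Xrp1. The gene lists were chosen with earlier results of these data known, so a high share may come from that choice, and the interval does not cover it. These lists hold between 10 and 73 genes of differing length and number of TSSs, and the differences between them were not tested.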

How the data were processed

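Anti-GFP ChIP-seq of tai-GFP larvae was available as peak lists. Per the text records deposited with them, peaks and background regions were called by the authors for each replicate and for both replicates pooled, with 1 control alignment, and the IDR list was derived from these. Aligner, peak caller and settings: not given in the sources used here. Each region's signal is the authors' deposited value, and no source names its scale. The deposited −log10 q values were read to describe the lists and used in no result. Lists on the dm3 build were not used.

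Genes, TSSs and UTRs came from Ensembl release 115 of BDGP6, and sequence from RefSeq's copy of release 6, which has the coordinates of dm6. Coordinates are 1-based. Regions off the 6 arms, 24 IDR peaks among them, were left out. Distances are negative upstream and were measured between summit and TSS. For each gene and list the summit of highest signal within 1000 bp was taken, and replicate ranks given for an IDR summit are those of the overlapping region. No test was run: counts carry exact intervals and stand beside all protein-coding genes, which include the ribosomal protein genes. Distance counting was tested on simulated positions. Scripts ran under Python 3.11.15 (pandas 2.3.3, numpy 2.4.6, scipy 1.17.1). Plots were drawn with matplotlib 3.10.9.

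The members, gene lists and motifs were chosen with earlier results of these data known. Genes named by rule were those with an IDR summit, the 5 strongest in each list, their paralogs, RpLP0, RpLP1, RpLP2, RpS6 and RpS3, the gene nearest to each IDR summit, and up to 3 genes of each other list. The other members were named after their values were seen. Of 32 regulator symbols 30 matched the annotation, and of 53 symbols for ribosome assembly and RNA polymerase I 45 matched. Alternatives varied the window, the number of regions, the TSSs, the overlap, the replicates and the motif windows. Some members are counted but not reported by name here.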

Additional observations from a re-analysis of the deposited data

How the results depend on the processing

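Of 38 alternatives 31 left a value within 1.5 times the reported count or within the spread of the members, and 7 moved it. The 10 genes with an IDR summit fell to 4 (all genes 4.95%) with the IDR peaks above their median signal and to 4 (all genes 4.02%) with the strongest 1000. The 7 genes with a top summit in both replicates became 1 with the strongest 1000 regions of each and 12 with the strongest 5000. The TCT initiator count of 76 became 18 within 2 bp of a TSS and 48 with the most upstream TSS alone, and the Motif 1 count of 10 became 16 (17.4%, compared with 8.61% of all genes) with 500 bp on each side. With 1 replicate in place of the IDR list, its top regions gave 13 genes without replicate 1 and 13 without replicate 3, and with 1 replicate list in place of the pooled list the count was 21 without replicate 1 and 29 without replicate 3. No paired analysis was possible because there is 1 group. Depth is unknown, the lists end at fixed numbers of regions, and 92 genes leave wide intervals. With 2 replicates and 1 shared control, the spread between replicates is known from 2 lists only.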
